A study of Mus musculus with 36 samples.

Results

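The 10 genes Jaml, Apbb1ip, Lsp1, Il1rl1, Eva1b, Trim47, Ehbp1l1, Pdlim4, Aebp1 and Cd24a were followed through 10 lines of transformed mouse astrocytes. They were chosen by their measured levels, because they appeared to switch between near the detection floor and clear expression from line to line, and they are 10 of the 46078 genes in the count table. The differences between lines that chose them are therefore given below as a description. Where calls of a model are counted for these differences, the share of all genes stands beside them and nothing is read from the count. Every line was of genotype Nf1-/- DNp53 (no functional Nf1, and p53 blocked by its dominant-negative form) and was grown in the same medium with 10% serum. From each of 5 lots, numbered 6, 7, 8, 11 and 12 and described as separate litters, there was 1 female line and 1 male line. RNA was profiled by BRB-seq, in which barcoded samples are pooled and transcripts are read at their 3' ends, in 36 libraries: 3 per line in lots 6 and 12 and 4 per line in lots 7, 8 and 11. Lines that keep Nf1 and p53 were not analysed here, and within a lot the line and the sex cannot be told apart.

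Several of these genes are best known from white blood cells. Jaml is a junctional adhesion molecule-like receptor that binds Cxadr on neighbouring cells, Apbb1ip (RIAM) links the small GTPase Rap1 to talin and so to integrin activation, Lsp1 is an actin-binding protein of leukocytes, Il1rl1 (ST2) is the receptor subunit that binds interleukin-33, and Cd24a is a small glycosylated surface protein of lymphocyte precursors, neural progenitors and epithelia. The others act at the cytoskeleton, in membrane traffic, in protein turnover or in the matrix: Pdlim4 is a PDZ-LIM protein that associates with actin and alpha-actinin, Ehbp1l1 is an effector of Rab8 in membrane transport, Trim47 is a ubiquitin ligase first described in astrocytoma, Aebp1 encodes a collagen-binding carboxypeptidase-like protein of the matrix, and Eva1b encodes a transmembrane protein of the Eva1 family.

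Library totals ranged from 4358098 to 7562901 counts, at which 3 counts corresponded to 0.397 to 0.688 CPM (counts per 1000000 counts of the library), the unit of all levels below. Ranges, and bounds on levels, are of line means unless libraries are named. A line mean under 1 CPM is called at the floor and one over 10 CPM clear. Leukocyte markers were close to absent in these cultures: of 16 pan-leukocyte markers, 15 stayed under 1 CPM in every line and 4 (Itgam, Cd37, Vav1 and Rac2) had no count, while Ptprc, the common leukocyte antigen, reached at most a line mean of 0.387 CPM. The exception was Arhgdib, at 2.44 to 31.4 CPM, which made up most of the summed level of the list, 3.06 to 32.2 CPM. Its highest value was in the lot 6 female line, where the means of Jaml and Apbb1ip were lowest. The summed level was also high in the lot 8 female line, where Jaml had its highest mean. It was 23.7 CPM there, against 4.22 CPM in the lot 8 male line. Of 14 microglia and macrophage markers 12 stayed under 1 CPM (summed level 2.22 to 11.2 CPM), with Trem2, C1qa, C1qb, Adgre1 and Tyrobp at 0. So did 9 of 10 T and innate lymphoid cell, 6 of 6 B cell, 7 of 7 mast cell and basophil and 7 of 8 neutrophil markers. The exceptions were Cd68 (1.25 to 6.31 CPM), Tmem119 (0.42 to 6.14 CPM), Gata3 (0.128 to 5.22 CPM) and S100a8 (0.199 to 1.48 CPM). The microglia and macrophage sum was highest in the lot 12 female line, where Apbb1ip and Aebp1 were highest. It was 8.86 CPM in the lot 12 male line, where Jaml and Apbb1ip averaged 2.28 and 3.28 CPM. Among non-blood types, 7 of 10 epithelial and 7 of 8 endothelial markers stayed under 1 CPM. The most abundant were Krt19 at 1.51 to 62.1 CPM and Flt1 at 1.85 to 17.4 CPM. Of 10 fibroblast and pericyte markers, 2 stayed under 1 CPM in every line and 5 exceeded 10 CPM in a line. The collagen gene Col1a2 was the most abundant of these, at 10.2 to 613 CPM. Lum had no count, and Pdgfra and Dcn reached at most 1.24 and 1.34 CPM by line mean. Of 12 astrocyte markers, 4 exceeded 10 CPM in a line (Gja1, Id3, Sox9 and Glul). Gja1 (80.7 to 200 CPM by line mean) and Id3 (278 to 646 CPM) were clear in all 10 lines. Gfap, Aqp4 and S100b stayed under 1 CPM in every line. The highest line means of Slc1a2, Fgfr3, Aldh1l1, Aldoc and Slc1a3 were 1.38, 1.27, 3.16, 4.61 and 9.64 CPM. In bulk RNA, fewer expressing cells and less RNA per cell cannot be told apart, which holds for every level below.

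The description of these genes as on or off held for few of them. Of 100 combinations of a gene and a line, 3 were at the floor, 67 were clear and the rest lay between. The 3 at the floor were Apbb1ip in the lot 6 female line and Eva1b in the lot 7 female and lot 8 male lines, so that 2 of the 10 genes were at the floor in one line and clear in another. With a floor of 2 CPM and a clear level of 20 CPM, 3 genes did so. Cd24a never fell below a line mean of 35.3 CPM. The ratio of the highest to the lowest line mean ran from 10.4 for Cd24a to 89.6 for Jaml. Of the 90 pairs of lines next to each other in the order of a gene's means, 69 had overlapping libraries, against 97% of such pairs over all 12173 genes tested.

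**Figure D1:**
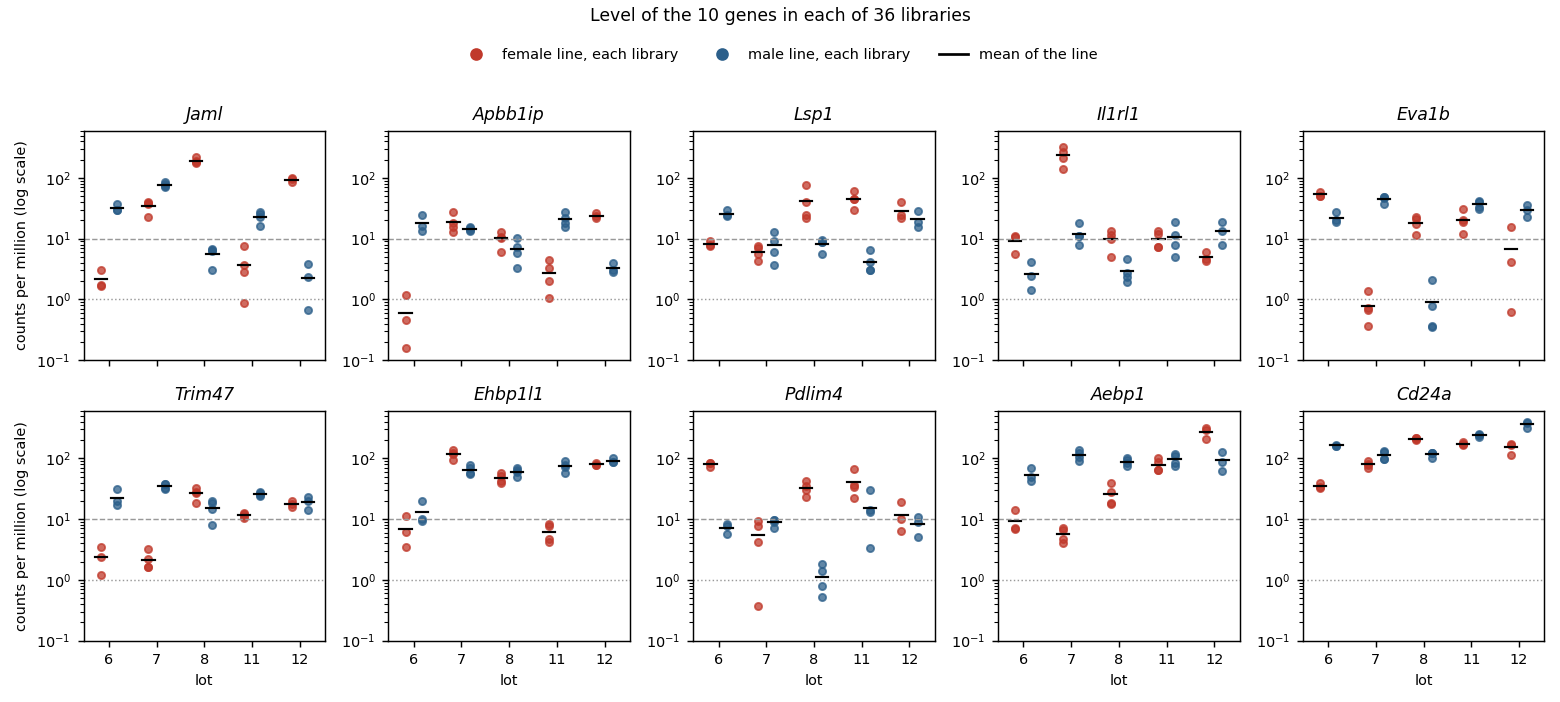
Level of each gene in each of the 36 libraries in CPM on a log scale, by lot, for female (red) and male (blue) lines; bars are line means, and the dotted and dashed lines mark 1 and 10 CPM. Il1rl1 stands out in the lot 7 female line only, at a mean of 235 CPM. Only Eva1b and Apbb1ip have line means below 1 CPM, though some libraries of Jaml and Pdlim4 also lie below it. The lowest line mean of Cd24a is above 35 CPM.

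Jaml (ENSMUSG00000048534, chromosome 9, 45079183 to 45108534, plus strand, GRCm38) had the widest ratio. In the lot 8 female line its libraries read 193, 218, 176 and 181 CPM. The male line of the same lot read 6.28, 3.02, 6.502 and 6.83 CPM. The lot 6 female line had the lowest mean, with libraries at 1.72, 3.03 and 1.68 CPM. All 4 libraries of the lot 8 female line thus lay above every other library, and the order below it ran lot 12 female (93.2 ± 6.35 CPM, SD, n = 3), lot 7 male (76.8 ± 6.74 CPM, n = 4), lot 7 female (34.7 ± 7.88 CPM, n = 4), lot 6 male (32.3 ± 4.56 CPM, n = 3) and lot 11 male (23.1 ± 5.10 CPM, n = 4). Among neighbours in this order only the lot 7 female and lot 6 male lines overlapped. The other 4 lines, lot 8 male, lot 11 female, lot 12 male and lot 6 female, had means of 5.66 to 2.14 CPM and each overlapped the next. Female and male libraries were fully apart in all 5 lots, with the female line above in lots 8 and 12 and below in lots 6, 7 and 11.

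The promoter of Jaml is shown because it had the highest ratio of line means of the genes (89.6, against 88.3 for Il1rl1) and one of the 2 windows with the fewest CG pairs among them. The window runs from 250 bases before to 50 after the RefSeq start on GRCm38.p6 (chr9:45078933-45079232, plus strand). Capitals mark CG pairs, here and in the windows below.

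Jaml promoter: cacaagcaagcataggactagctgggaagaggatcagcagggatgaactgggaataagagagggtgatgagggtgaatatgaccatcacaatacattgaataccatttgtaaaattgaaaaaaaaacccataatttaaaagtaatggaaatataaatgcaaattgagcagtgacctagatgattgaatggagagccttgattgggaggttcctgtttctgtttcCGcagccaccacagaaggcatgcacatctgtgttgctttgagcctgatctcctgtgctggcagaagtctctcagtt

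This window holds 1 CG pair, against a median of 7 over the 32851 windows of the table, and 42.3% of its bases are G or C. The nearest coding genes of Jaml were not chosen by any rule on their levels. Mpzl3, which encodes an adhesion protein of the myelin protein zero family, ends 1747 bases before Jaml on the same strand. In lot 8 it read 17.2 ± 1.24 CPM in the female line (SD, n = 4) and 0.913 ± 0.907 CPM in the male line (n = 4), the highest and lowest of its 10 line means. Of 20 nearest coding neighbours of the 10 genes, 11 were abundant enough to test and 9 of these differed among the 10 lines at an adjusted p under 0.05, as did 51.8% of all 12173 genes tested with edgeR; Mpzl3 was one of the 9 (adjusted p 3.19e-05). Over the 10 line means, Mpzl3 and Jaml had a Pearson correlation of log2(CPM + 1) of 0.85 and a Spearman correlation of 0.79. The Pearson value was 0.94 without the 2 lines farthest from the median Jaml level and 0.80 without the lot 8 female line. Within lines, over the deviations of the 36 libraries from their line means, it was 0.49. Each pair of values comes from the same libraries.

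Mpzl2, the next gene on, belongs to the same family and was singled out after its values were seen. It had 1 count in the 3 libraries of the lot 6 female line (0.0441 CPM) and was highest in the lot 8 female line, at 66.9 ± 5.56 CPM (SD, n = 4). Its means in the lot 7 male, lot 12 female, lot 11 male and lot 6 male lines were 11.4, 6.08, 2.60 and 1.35 CPM, and in the other 4 lines they were 0.310 to 0.518 CPM. It differed among lines with an adjusted p of 2.55e-19 (edgeR). Its line means correlated with those of Jaml at a Pearson value of 0.85 and a Spearman value of 0.89, and at 0.84 without the lot 8 female line, but within lines the value was -0.05. Farther along, Cd3d and Cd3e, subunits of the T cell receptor complex, had no count in any library and Cd3g reached at most a line mean of 0.05 CPM, while the line means of the sodium channel genes Scn2b and Scn4b on the other side stayed under 0.33 CPM. Of 65 coding genes within 100 kb of the 10 genes, 48 exceeded 1 CPM in a line, and their line means had a median correlation with the gene they lie near of 0.14. The 4 at 0.7 or more were Mpzl2 and Mpzl3 beside Jaml, Syt8 beside Lsp1 (0.73, at a highest line mean of 1.32 CPM) and Bend3 beside Cd24a (0.77).

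**Figure D2:**
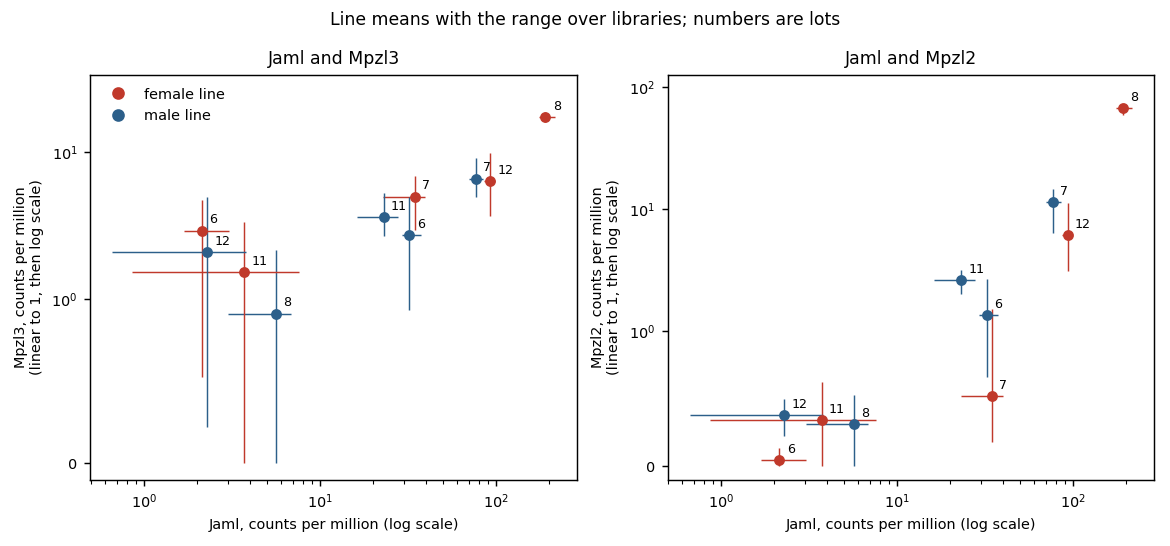
Line means of Jaml against Mpzl3 (left) and Mpzl2 (right) in CPM, with bars from the lowest to the highest library and each point labelled with its lot; the vertical axis is linear up to 1 CPM and logarithmic above. The lot 8 female line is highest for all 3 genes, and Mpzl2 falls below 1 CPM in 5 lines.

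Cxadr, the counter-receptor of Jaml, was lowest in the lot 12 female line (4.95 CPM), where Jaml had its second highest mean, and highest in the lot 7 female line (20.6 CPM; adjusted p 3.47e-05, edgeR). Of 8 junctional adhesion molecules and partners, 6 were tested and 5 differed among lines: Jam2 (4.89 to 51.8 CPM, adjusted p 3.98e-11), Cxadr, Clmp (0 to 5.77 CPM, 0.000265), F11r (0.254 to 8.24 CPM, 0.00236) and Jam3. By the rule of highest likeness of line means among 7174 genes, the genes nearest to Jaml were Ncbp3, Slc39a11 and Psme1. Their Pearson values were 0.89, 0.89 and 0.87 over the 10 lines, and Ncbp3 ranged only from 20.3 to 30.6 CPM. Here and below, such genes are the highest 3 of 7174 over only 10 line means. The level that chance would reach was not computed, so nothing is read from these values. Without the 2 lines farthest from a gene's median, the 30 values ran from 0.43 to 0.97. Spearman correlation kept 7 of the 30 genes.

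Apbb1ip (ENSMUSG00000026786, chromosome 2, 22774094 to 22875653, plus strand) read 23.7, 26.2 and 22.0 CPM in the lot 12 female line, its highest. The lot 6 female line, its lowest, read 1.19, 0.159 and 0.458 CPM, or 13 counts in all. These 3 libraries lay below all those of the other lines except 1 of the lot 11 female line, at 1.07 CPM. The lot 11 male, lot 7 female, lot 6 male and lot 7 male lines, at 20.8 to 14.4 CPM, overlapped each other and the top line in sequence, and the lot 8 lines lay between, at 10.1 and 6.65 CPM. The lot 12 male and lot 11 female lines averaged 3.28 and 2.69 CPM. Raph1, its closest relative (lamellipodin), ranged from 1.12 to 5.41 CPM and did not pass the test among lines (adjusted p 0.368, edgeR). Of 15 genes of Rap1, talin and integrin activation, 14 were tested and 10 differed among lines. Among them were Vasp, an actin polymerase that binds Apbb1ip (49.99 to 138 CPM, adjusted p 1.05e-10), the integrin co-activator Fermt2 (206 to 579 CPM, 2.06e-10), the integrin subunit Itgb1 (218 to 701 CPM, 2.43e-10) and the talin gene Tln2 (8.92 to 55.5 CPM, 2.28e-08). Vasp, Itgb1 and Tln2 were highest in the lot 6 female line, where Apbb1ip was lowest, whereas Fermt2 and Raph1 were highest in the lot 12 female line, where Apbb1ip was highest. The most alike patterns were those of Cisd3, Nsrp1 and Hltf (0.87, 0.84 and 0.84).

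Lsp1 (ENSMUSG00000018819, chromosome 7, 142460809 to 142494867, plus strand) spanned a 10.9-fold ratio and had no line at the floor. Its libraries read 29.7, 45.5, 45.7 and 60.5 CPM in the lot 11 female line and 4.09, 3.00, 3.05 and 6.54 CPM in the male line of the same lot. The 5 lines with means of 45.4 to 21.02 CPM (lots 11, 8 and 12 female, lots 6 and 12 male) stood apart from the 5 others, at 8.17 to 4.17 CPM, with no library of one set inside the other; within each set neighbouring lines overlapped. In the lot 8 female line the libraries themselves ranged from 21.6 to 77.5 CPM, with 40.7 and 24.5 CPM between. The nearest coding genes, the troponin genes Tnni2 and Tnnt3, stayed under 0.36 CPM by line mean. Genes of most alike pattern were Plscr2, Mgst3 and Sspn (0.83, 0.82 and 0.82).

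Il1rl1 (ENSMUSG00000026069, chromosome 1, 40429570 to 40465415, plus strand) was carried by a single line. The lot 7 female line read 209, 266, 140 and 325 CPM, while the male line of that lot read 11.0, 7.86, 11.0 and 18.3 CPM. The lowest line, lot 6 male, read 4.12, 1.41 and 2.47 CPM. The step below the lot 7 female line was 17.6-fold, to the lot 12 male line at 13.4 ± 5.34 CPM (SD, n = 3), and the remaining 9 lines overlapped in a chain from there to 2.66 CPM. RefSeq gives 2 starts for this gene; the 3' counts were not split by start. Both windows are shown because they are poor in CG pairs, like that of Jaml (chr1:40429320-40429619 and chr1:40439379-40439678, plus strand, GRCm38.p6).

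Il1rl1 first promoter: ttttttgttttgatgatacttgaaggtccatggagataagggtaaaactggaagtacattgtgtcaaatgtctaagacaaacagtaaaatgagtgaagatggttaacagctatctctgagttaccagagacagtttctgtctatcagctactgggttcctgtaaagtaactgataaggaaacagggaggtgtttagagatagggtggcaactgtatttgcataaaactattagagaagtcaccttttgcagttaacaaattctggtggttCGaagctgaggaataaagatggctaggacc

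Il1rl1 second promoter: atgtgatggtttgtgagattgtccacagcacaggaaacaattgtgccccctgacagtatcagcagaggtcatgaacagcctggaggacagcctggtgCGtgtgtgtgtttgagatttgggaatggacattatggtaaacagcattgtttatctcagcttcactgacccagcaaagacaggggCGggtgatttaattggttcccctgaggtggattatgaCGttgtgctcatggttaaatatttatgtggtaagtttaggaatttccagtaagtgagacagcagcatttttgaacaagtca

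The first window holds 1 CG pair and the second 3. The neighbouring receptor genes did not share the level of Il1rl1: Il18r1, which starts 137 bases after its end on the same strand, reached at most 0.135 CPM by line mean, and Il1rl2 on the other side had no count. Il1rap, the co-receptor that pairs with Il1rl1, was tested as one of 10 genes of the interleukin-33 receptor pathway, of which 5 differed among lines. Its lowest mean was 2.53 CPM (lot 6 male) and its highest 12.2 CPM (lot 7 female; adjusted p 0.00113, edgeR), in the lines that were also lowest and highest for Il1rl1. The kinase gene Irak2 had the same lowest and highest lines, at 7.92 and 24.5 CPM (7.98e-06). So did genes of other lists, Rap1a at 27.6 and 49.98 CPM and Zyx at 123 and 266 CPM, so these lines are not particular to the pathway. The inhibitory receptor Sigirr ranged from 0 (lot 12 female) to 6.63 CPM (lot 7 male; 2.37e-05), and the ligand gene Il33 from 0 (lot 6 female) to 2.69 CPM (lot 12 male; 0.00896). The related receptor genes Il1r1 (0.0895 to 4.27 CPM, adjusted p 0.0105) and Il18rap (1.60 to 9.85 CPM, 0.0251; 0.0531 with the replicate number as a block) passed the same test. Over the line means, Dhx40, Ppwd1 and Lhx1 were most alike (0.90, 0.90 and 0.89); without the 2 lines farthest from the median the values were 0.43, 0.97 and 0.48.

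Cd24a (ENSMUSG00000047139, chromosome 10, 43578284 to 43584265, plus strand) was the gene with the smallest spread. It read 393, 315 and 389 CPM in the lot 12 male line and 32.8, 38.9 and 34.3 CPM in the lot 6 female line. The 8 other lines averaged 79.5 to 241 CPM. Female and male libraries were apart in every lot, with the male line above in lots 6, 7, 11 and 12 and the female line above in lot 8. In lot 6 the log2 fold change of the female over the male line was -2.44, beside a median of -0.51 for the tested genes of chromosome 10 and of 0.06 for all genes in that lot; the part of the chromosome in this value was not tested. Its neighbour 1700021F05Rik differed among lines (59.3 to 106 CPM, adjusted p 6.27e-06, edgeR), and Qrsl1 did not pass (7.12 to 12.8 CPM, 0.0966) but did with the replicate number as a block (0.0444). Stk24, Nsun2 and Wdhd1 were most alike (0.95, 0.94 and 0.94).

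Pdlim4 (ENSMUSG00000020388, chromosome 11, 54054928 to 54069014, minus strand) was highest in the lot 6 female line, at 82.9, 84.4 and 73.3 CPM. The lot 8 male line was lowest, at 0.785, 1.42, 1.81 and 0.525 CPM. The lot 6 female libraries lay above all others, followed by the lot 11 female (40.2 ± 19.2 CPM, SD, n = 4) and lot 8 female lines (32.8 ± 8.02 CPM, n = 4), and each line from the second downwards overlapped the next. The other means ran from 15.3 to 5.37 CPM. Its promoter is shown as the contrast to those of Jaml and Il1rl1 (chr11:54068968-54069267, minus strand, GRCm38.p6).

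Pdlim4 promoter: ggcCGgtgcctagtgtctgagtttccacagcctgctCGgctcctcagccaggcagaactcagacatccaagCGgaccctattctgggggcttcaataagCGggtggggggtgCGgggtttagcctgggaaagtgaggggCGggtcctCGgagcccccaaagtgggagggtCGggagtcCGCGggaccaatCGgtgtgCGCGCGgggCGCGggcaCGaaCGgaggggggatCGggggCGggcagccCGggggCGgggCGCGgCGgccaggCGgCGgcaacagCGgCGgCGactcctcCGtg

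This window holds 31 CG pairs, more than 89.4% of all windows, and 71.7% of its bases are G or C. The ratio of highest to lowest line mean was 70.7 for Pdlim4 and 89.6 for Jaml. A relation of CG content to these ratios was not tested. Of its relatives, Pdlim1 had its lowest mean in the lot 8 male line (69.5 CPM) and its highest in the lot 7 female line (322 CPM; adjusted p 1.53e-15, edgeR) and Pdlim2 ranged from 49.5 to 186 CPM (8.49e-09), with its highest mean in the lot 8 male line, where Pdlim4 was lowest. Pdlim3 had a highest line mean of 2.36 CPM and was too low to test. All 9 tested genes of the PDZ-LIM list (of 10) differed among lines. These included Pdlim7 (178 to 668 CPM, 1.79e-14) and the alpha-actinin gene Actn1 (73.8 to 184 CPM, 1.24e-08). Pdlim7 shared with Pdlim4 the lot 6 female line as highest and the lot 8 male line as lowest. Tln2, Itgb3 and Micall2 of other lists had the same highest and lowest lines. Of the neighbours, P4ha2, a collagen prolyl hydroxylase subunit gene, ranged from 17.6 to 52.7 CPM (5.61e-06) and Slc22a4 from 0 to 3.27 CPM (0.00146). Most alike in pattern were Exo5, Ctnnal1 and Psmb7 (0.91, 0.88 and 0.87).

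Ehbp1l1 (ENSMUSG00000024937, chromosome 19, 5707376 to 5726317, minus strand) split the lines at a step of 3.67-fold. Its libraries read 92.9, 138, 116 and 125 CPM in the lot 7 female line and 4.12, 8.33, 4.63 and 7.58 CPM in the lot 11 female line. Means of 7 lines were 47.4 to 118 CPM, and 3 lay well below them: lot 6 male at 12.9 ± 5.76 CPM (SD, n = 3), lot 6 female at 6.91 ± 3.89 CPM (n = 3) and lot 11 female at 6.17 ± 2.098 CPM (n = 4). No library of the 3 lines reached the lowest library of the 7. Its counts are uncertain, since the last 500 bases of its longest coding transcript matched stretches of 156 to 200 bases in transcripts of at least 128 other genes at 90% identity or more; the other 9 genes had no such match over 100 bases or more. The relative Ehbp1 ranged from 0.493 to 4.30 CPM (adjusted p 0.0381, edgeR; 0.0580 with the replicate number as a block). Of 10 genes of Rab8 and Rab10 membrane recycling, 9 were tested and 6 differed among lines, among them Bin1, a membrane-bending partner of Ehbp1l1 (17.2 to 59.0 CPM, 6.07e-07), Ehd1 (41.8 to 74.3 CPM, 8.43e-05), Rab10 (24.1 to 47.5 CPM, 0.000697) and Rab8a (93.5 to 147 CPM, 0.00261). Cisd3, Dcaf7 and Canx were most alike (0.90, 0.88 and 0.88), and Cisd3 also led the list of Apbb1ip.

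Eva1b (ENSMUSG00000050212, chromosome 4, 126147744 to 126149875, plus strand) came closest to an on-off pattern. The lot 7 female line read 1.40, 0.370, 0.670 and 0.719 CPM (17 counts in all), and the male line of the same lot read 36.6, 46.4, 48.8 and 48.3 CPM. The lot 8 male line read 0.785, 0.355, 0.361 and 2.1 CPM (20 counts), and the lot 8 female line 17.2, 22.5, 11.5 and 21.3 CPM. The highest line was lot 6 female, at 50.4, 58.8 and 51.3 CPM, and the widest step, 7.52-fold, lay between lot 12 female and lot 8 male. The libraries of the lot 12 female line themselves read 0.612, 4.15 and 15.5 CPM, so this line reached from the floor to a clear level. Female and male libraries were apart in all 5 lots, female above in lots 6 and 8 and below in lots 7, 11 and 12. Its promoter is shown because it lies between the others in CG content (chr4:126147753-126148052, plus strand, GRCm38.p6).

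Eva1b promoter: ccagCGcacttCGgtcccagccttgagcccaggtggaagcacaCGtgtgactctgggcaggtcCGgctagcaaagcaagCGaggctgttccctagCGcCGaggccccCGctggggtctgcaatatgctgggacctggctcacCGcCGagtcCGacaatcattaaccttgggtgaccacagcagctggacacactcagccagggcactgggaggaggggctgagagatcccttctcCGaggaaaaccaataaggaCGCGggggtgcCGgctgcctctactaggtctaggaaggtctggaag

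The window holds 15 CG pairs. The relative Eva1a was also highest in the lot 6 female line, at 10.4 CPM, and lowest in the lot 6 male line, at 0.421 CPM (adjusted p 2.60e-05, edgeR), while Eva1c ranged only from 30.7 to 55.7 CPM (0.00415). The neighbour Stk40 did not pass (1.56 to 6.45 CPM, 0.284) and Sh3d21 had a highest line mean of 0.365 CPM. Col18a1, a basement membrane collagen gene, had the most alike pattern (0.87; 0.57 without the 2 farthest lines), followed by Srpr and Cox5a (0.85 and 0.82).

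Trim47 (ENSMUSG00000020773, chromosome 11, 116105752 to 116127210, minus strand) was low in 2 lines only. It read 2.38, 3.50 and 1.22 CPM in the lot 6 female line and 1.60, 2.22, 3.18 and 1.62 CPM in the lot 7 female line. The lot 7 male line was highest, at 32.8, 37.8, 31.5 and 37.5 CPM. The 8 lines outside the low pair averaged 11.6 to 34.9 CPM, overlapped in sequence and were 4.88-fold above the pair at the step. Trim65, a related ligase gene that overlaps Trim47 on the same strand, had 357 counts in all libraries against 3951. It did not pass among lines (0.600 to 2.90 CPM, adjusted p 0.189, edgeR), and counting by strand would not separate it from Trim47. Whether the authors counted by strand is not given in the sources used here. This bears on overlaps on the opposite strand, of Gm10684 with Jaml and of Prr33 with Lsp1. Trim25 ranged from 0.747 to 6.92 CPM (0.000479), and the neighbours Wbp2 and Mrpl38 ranged only from 74.4 to 123 CPM (0.00563) and from 46.4 to 87.7 CPM (7.95e-06). The patterns most alike were those of the locus annotated as Mir703 (ENSMUSG00000105814), Psma4 and Zcchc14 (0.95, 0.94 and 0.92).

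Aebp1 (ENSMUSG00000020473, chromosome 11, 5861947 to 5872088, plus strand) read 207, 289 and 314 CPM in the lot 12 female line, above every other library. The lot 7 female line was lowest, at 4.00, 4.63, 6.70 and 7.01 CPM, and the male line of that lot read 91.9, 105, 122 and 138 CPM. The 6 lines between 53.9 and 114 CPM overlapped in sequence, and the lot 8 female (25.9 ± 10.1 CPM, SD, n = 4) and lot 6 female lines (9.34 ± 4.07 CPM, n = 3) lay below them. The female line was thus fully below the male line in lots 6, 7 and 8 and above it in lot 12. Pold2, whose end lies 92 bases from that of Aebp1 on the opposite strand, ranged only from 139 to 189 CPM (adjusted p 0.00204, edgeR). Of 10 genes of carboxypeptidase-like proteins and matrix assembly, 8 were tested and all 8 differed among lines: the collagen-binding Sparc (1024 to 2994 CPM, 3.52e-14), the proteoglycan gene Bgn (23.5 to 364 CPM, 4.99e-13), Cpe (190 to 477 CPM, 1.14e-08) and Postn (0 to 8.04 CPM, 8.73e-07) had the smallest p. Bgn shared with Aebp1 the lot 7 female line as its lowest, and Postn and the relative Cpxm1 (0.0417 to 5.01 CPM, 0.0117) shared the lot 12 female line as their highest, while Sparc and Cpe were highest in the lot 12 male line. Pcdh9, Prcp and Fam198b were most alike (0.93, 0.91 and 0.90).

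Across the 16 listed relatives of the 10 genes, 12 were tested and 10 differed among lines, all but Raph1 and Trim65, and 6 did with the replicate number within each lot as a block. The pathway lists passed at shares from 5 of 10 genes tested (interleukin-33 receptor pathway) to 9 of 9 (PDZ-LIM) and 8 of 8 (carboxypeptidase-like and matrix assembly), beside the 51.8% of all genes. Nothing is called particular to a list from these shares. Since the labels do not say that a line's libraries came from separate cultures, the p-values here and within lots reflect only library-to-library spread, which may be technical.

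The question whether these genes differed between the sexes was put to the 5 lots, a comparison that the choice of the genes did not use. Of the 10 genes, 0 passed, as did 0 of 12010 genes (0%, edgeR on the summed counts of each line with lot as a term; 841 genes had an unadjusted p under 0.05, none of them one of the 10, and DESeq2 called 60 genes, also none of the 10). Pdlim4 had the smallest p: its mean was 34.0 ± 29.5 CPM over the female and 8.16 ± 5.04 CPM over the male lines (SD, n = 5), a log2 fold change of 1.69 ± 0.79 (SE; p 0.0652, adjusted 0.695), with the female line above the male in 4 of 5 lots. For Trim47 the female line was below the male in 4 of 5 lots, with means of 12.1 ± 10.4 against 23.5 ± 7.53 CPM, with a log2 fold change of -1.54 ± 0.75 (adjusted p 0.695). Cd24a, at 130 ± 71.2 against 201 ± 106 CPM, and Aebp1, at 78.0 ± 111 against 88.8 ± 22.0 CPM, had log2 fold changes of -0.81 ± 0.40 and -1.57 ± 0.82 (adjusted p 0.695 and 0.696) and the female line was likewise below in 4 of 5 lots. The standard errors of the 10 genes ran from 0.40 to 1.92. Differences of several fold would thus not have been detectable for Jaml, at -0.12 ± 1.92, or Eva1b, at -0.73 ± 1.33. The edgeR comparison called no gene at all, those of the sex chromosomes included. The 0 among the 10 genes is therefore not read as equal levels in the sexes. Of the 10 log2 fold changes 3 were above 0 (Lsp1, Il1rl1 and Pdlim4), and their median was -0.69. No gene of the pathway lists passed either; the list medians ran from 0.03 (Rab8 and Rab10 membrane recycling) to 0.35 (carboxypeptidase-like and matrix assembly), beside 0.01 for all genes tested.

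Within lots, the female and the male line were apart for most of these genes, in directions that turned from lot to lot. This describes 1 line of each sex per lot, so it is not a difference between the sexes. Of 50 combinations of a gene and a lot, all female libraries lay above all male ones in 15, below in 22, and the ranges overlapped in 13; over all genes tested the shares above and below were 13.4% and 7.5%. As a count only, the edgeR contrast of the female and male line called 38 of the 50. In lot 6 it called 3 genes higher and 7 lower in the female line, where 13.5% and 14% of all genes were called. The counts were 2 and 5 in lot 7 (5.41% of all genes in either direction). They were 7 and 1 in lot 8 (6.41% higher, 4.99% lower) and 2 and 5 in lot 11 (1.52% and 2.81%). Lot 12 had 3 and 3 (1.74% and 2.06%). These counts, shares and the fold changes below come from the fit without a replicate block, also in lot 12. The 212 and 251 genes called there became 732 in all without replicate 3 of the male line and 228 without its replicate 1, 265 without its replicate 2 and 281 without replicate 3 of the female line. For 8 genes the libraries were fully apart in both directions in different lots, as for 11.6% of all genes. The genes were chosen by the same differences, so nothing is read from their shares. All 10 but Pdlim4, 9 genes, were called in both directions in different lots, as were 4.98% of all genes. In lot 12, where libraries with the same number are paired by the check given with the methods, the call of Il1rl1 was lost with the replicate number as a block, which leaves 8 genes. The widest turn was that of Eva1b, from -5.88 ± 0.50 in lot 7 to 4.21 ± 0.50 in lot 8, and Jaml went from -4.14 ± 0.37 in lot 6 to 5.23 ± 0.37 in lot 12 (log2 fold change, SE). Pdlim4, Trim47 and Aebp1 lie on chromosome 11, for which the median over 986 tested genes in lot 6 was -0.25; those of the 3 genes in that lot were 3.24, -3.46 and -2.74. The part of the chromosome in these values was not tested.

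**Figure D3:**
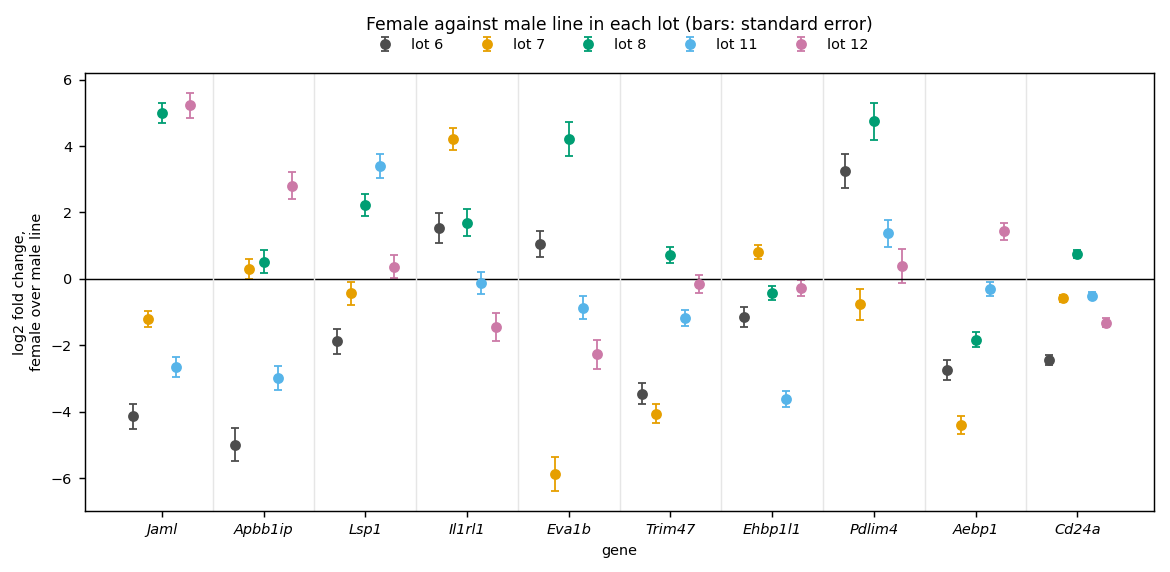
Log2 fold change of the female over the male line in each of the 5 lots for each gene, with bars of 1 standard error from the edgeR fit. The points of Eva1b run from -5.88 to 4.21 and those of Jaml from -4.14 to 5.23, whereas those of Cd24a run from -2.44 to 0.75.

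The genes did not move as a set. Over the 10 line means, the correlations of log2(CPM + 1) between the 45 pairs of genes ran from -0.63 (Il1rl1 and Aebp1) to 0.79 (Jaml and Apbb1ip). The value for Jaml and Apbb1ip was 0.65 without the 2 lines farthest from the median Jaml level (Spearman 0.70). Trim47 with Aebp1 (0.78) and with Cd24a (0.74) fell to -0.19 and -0.03 on leaving out 2 lines, so these rested on those lines, and Eva1b with Pdlim4 went from 0.66 to 0.22. All pairs share their 10 lines and libraries, and the genes were chosen for their line means.

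Deviations of the libraries from their line means were not used in choosing the genes. They gave the highest value for Lsp1 and Pdlim4, at 0.54 (Spearman 0.61, 36 libraries), against 0.30 over the line means. The value was 0.52 with TMM scaling, 0.51 without the lot 12 female line and 0.42 without the libraries numbered 4, alternatives added after the value was seen. Jaml and Apbb1ip, highest over line means, stood at -0.30 within lines. The share of mitochondrial mRNA, 0.251 to 0.775% of a library, had correlations of -0.43 with Lsp1 and -0.35 with Pdlim4 in the same deviations, the range over the 10 genes being -0.43 to 0.13, and its part in the pair was not tested.

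**Figure D4:**
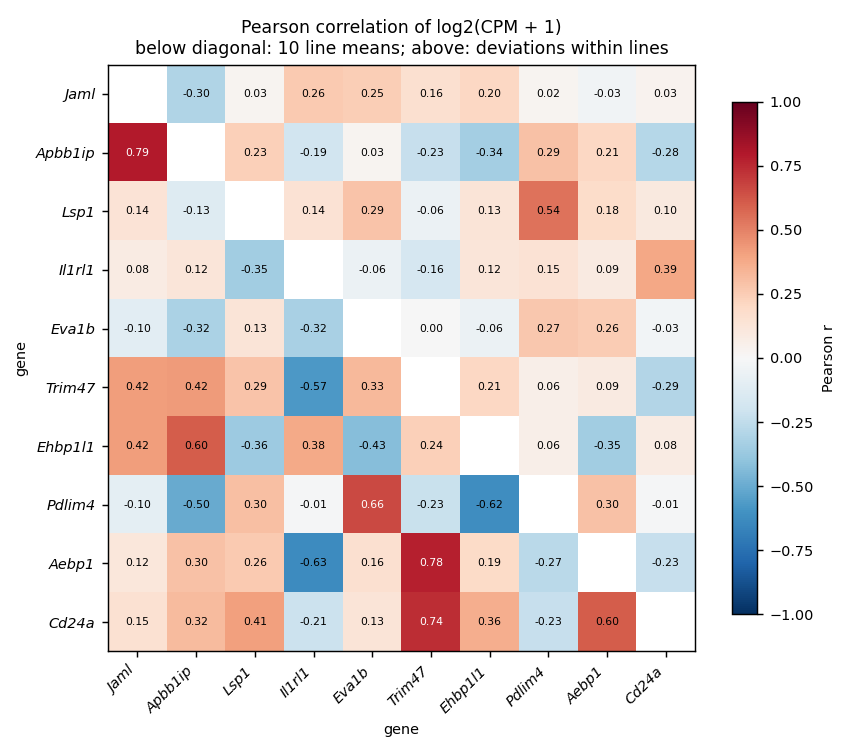
Pearson correlation of log2(CPM + 1) for each pair of the 10 genes; cells below the diagonal use the 10 line means and cells above it the deviations of the 36 libraries from their line means. Jaml with Apbb1ip is highest below the diagonal (0.79) and Lsp1 with Pdlim4 above it (0.54).

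The spread between libraries of a single line was measured as the chi-square of a gene's counts over the libraries of a line, per degree of freedom, and set beside genes within 1.5-fold of its level in that line. Eva1b in the lot 12 female line (0.612 to 15.5 CPM) had 56.1, against a median of 4.67 for 2041 such genes, 99.9% of which had less. Lsp1 in the lot 8 female line had 82.3 (median 4.91), and Pdlim4 had 58.0 in the lot 11 female line, with libraries at 22.4, 36.4, 34.3 and 67.5 CPM, and 51.0 in the lot 11 male line, with libraries at 13.3, 3.33, 14.01 and 30.5 CPM. Of the 100 combinations of a gene and a line, 10 exceeded 95% of the genes of like level and 60 exceeded the middle of them. The 10 were 3 lines of Pdlim4, 2 each of Lsp1 and Eva1b, and 1 each of Jaml, Il1rl1 and Aebp1. In those of lots 7, 8 and 11 the highest library was the one numbered 4, except for Pdlim4 in the lot 7 female line, where it was replicate 3. The part of the libraries numbered 4 in these spreads was not tested. Cd24a had the smallest SD within lines on the log2 scale, 0.16, while Pdlim4 had the largest of the 10, 0.71.

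RefSeq windows were held for 8 of the 10 genes, and Il1rl1 and Ehbp1l1 had 2 each. The number of CG pairs in the other windows was 13 for Apbb1ip, 18 for Aebp1, 29 for Trim47, and 27 and 33 for Ehbp1l1. In view of the series' subject, NF-kB and STAT3 signalling, the 10 windows were searched on both strands for the NF-kB letters GGGA, any base, TTTCC, which 0.411% of all windows hold, and for the STAT letters TTCNNNGAA, which 8.30% hold; neither was found. AP-1 letters (TGANTCA, in 7.81% of windows) were not found either. RUNX letters (TGTGGT, in 16.8%) were present in the Jaml, Eva1b and second Il1rl1 windows, ETS letters (CCGGAA, in 14.9%) in both Ehbp1l1 windows and that of Aebp1, and TATA letters (TATAAA, in 13.6%) in that of Jaml. A match or its absence describes these letters in this window only.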

How the data were processed

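The deposited file is a single table of raw counts, one row per Ensembl gene, per the labels; all values are whole. Tools named in the submitters' processing notes are STAR 2.7.6a, Subread 2.0.2 and cutadapt 2.10, with genome GRCm38. Collapse of molecular identifiers by the authors is not given in the sources used here, so floors cover counting error only. The 10 genes and all gene lists were chosen with earlier results of these data known. Identifiers were matched to GENCODE release M21 (45143 of 46078 genes). Levels are CPM computed from the deposited counts on library totals.

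All genes passing edgeR's expression filter were fitted by its quasi-likelihood method with TMM scaling (edgeR 4.0.16, R 4.3.3; DESeq2 1.42.0 as the alternative): 36 libraries with 1 coefficient per line for lots and for differences among the 10 lines, and the summed counts of each line with lot and sex for the sexes. Adjustment followed Benjamini and Hochberg over all genes tested, with a threshold of 0.05. The methods were also run on simulated data, with less spread between lines than the 10 genes had (SD of log2 line means 0.92 to 2.15). That run does not show how well sex differences in these genes would be found. Genes named beside the 10 were the 3 of highest Pearson correlation of line means (highest line at least 10 CPM, no predicted genes or pseudogenes), the nearest coding gene on each side, listed relatives, and up to 4 genes of smallest p of each pathway list. Promoters are from RefSeq, and matching transcript ends were sought with BLAST 2.17.0. Residuals of female and male libraries of the same number in a lot correlated at 0.28 to 0.45 in lot 12, each over 0.1, which was taken as pairing. In the other lots they correlated at -0.11 to 0.26, and none of these lots had every pair over 0.1. The pairs numbered 4, at 0.20, 0.26 and 0.17 in lots 7, 8 and 11, were the highest same-number pairs of those lots.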

Additional observations from a re-analysis of the deposited data

Results flagged for a closer look

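Of 80 groups of line means or libraries, 5 had a value farther from the others than Dixon's 95% limit, and chance flags about 1 in 20 groups. Among the 5 female lines, the lot 7 female line stood apart for Il1rl1 at 235 CPM, with the others at 4.98 to 9.91 CPM, and the lot 12 female line for Aebp1 at 270.0 CPM, with the others at 5.58 to 79.1 CPM. Line means were among the values that chose these genes, so both are descriptions and support nothing. Among libraries of a line, Jaml was low in replicate 3 of the lot 7 female line at 22.9 CPM (others 37.8 to 39.8 CPM) and in replicate 2 of the lot 8 male line at 3.02 CPM (others 6.28 to 6.83 CPM), and Cd24a was low in replicate 3 of the lot 8 male line at 102 CPM (others 123 to 125 CPM).

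For 8 genes every female library was above every male library in at least 1 lot and below in at least 1 other, as for 11.6% of all genes tested. The log2 fold changes of their most distant lots differed by 10.1 for Eva1b, 9.37 for Jaml, 7.80 for Apbb1ip, 5.84 for Aebp1, 5.67 for Il1rl1, 5.29 for Lsp1, 4.42 for Ehbp1l1 and 3.19 for Cd24a. These differences between lots were not tested, since the genes were chosen for them.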

How the results depend on the processing

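None of the 10 genes passed the comparison of the sexes under any alternative run (scaling, filter, no lot term, DESeq2, and leaving out each library or lot). The count over all genes, 0, became 60 with DESeq2, 3 with all genes of at least 1 count and 1 without the lot term, and 0 to 1 on leaving out 1 library (1 without replicate 4 of the lot 7 female line). The direction for Jaml reversed to 1.14 without the lot term and to 1.53, 0.94 and 1.39 without lots 6, 7 and 11, that for Apbb1ip to 0.24 and 0.11 without lots 6 and 11, and that for Eva1b to 0.28 without lot 7. No direction of the 10 turned on leaving out 1 library. With the replicate block within each lot, 37 of the 50 contrasts of the female and male line of a lot were called, against 38. On leaving out 1 library, 35 to 38 were called. The relatives called among lines fell from 10 to 6 with the replicate block within each lot. With the replicate number over all lines as the block they were 8. In lot 12, 212 genes were called higher and 251 lower, and in all 732 were called without replicate 3 of the male line, 228 without its replicate 1, 265 without its replicate 2 and 281 without replicate 3 of the female line. Of the 30 genes of most alike pattern, 25 were shared with a pseudocount of 0.1 and 7 with Spearman correlation. The cause of these changes was not tested. The depth sets the floor: Apbb1ip and Eva1b rest on 13 to 20 counts per line where lowest.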
